A study of Mus musculus with 12 samples.

Results

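The anoctamins (Ano genes, also called Tmem16) encode a family of membrane proteins, and 8 of them were followed here: Ano3, Ano1, Ano2, Ano4, Ano5, Ano6, Ano8 and Ano10. These 8 were taken by name out of 54735 gene symbols. Ano3 was chosen by its transcript level in the pallium lacking U11, so its own differences are given as a description with no test, and the question asked was whether its relatives changed with it. Ano7 and Ano9, the other anoctamins in the files, were added to complete the family of 10. Of the 8, 4 (Ano8, Ano10, Ano3 and Ano6) had a mean of at least 1 TPM (a length-corrected transcript abundance, scaled to the same total in every library) over all libraries and entered the main test with 11764 genes; Ano3 passed through its level in 1 genotype. Levels are given as deposited TPM, and since these are per length they can be ordered between genes.

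RNA was sequenced from the dorsal telencephalon (pallium) of C57/Bl6 mouse embryos at E13.5, with 4 libraries for each of 3 genotypes. The controls carried 1 floxed and 1 wild-type allele of Rnu11 and wild-type Trp53. The cKO embryos carried floxed Rnu11 on both alleles and wild-type Trp53, and the dKO embryos were homozygous for floxed Rnu11 and for floxed Trp53. All 3 genotypes carried Emx1-Cre, the controls included, so the controls are Cre-positive and heterozygous for the floxed Rnu11 allele. Emx1-Cre acts in pallial progenitors and their descendants, so vessels, meninges, blood and microglia in the same dissection keep their alleles. Rnu11 is the gene of the U11 snRNA, which recognises the 5′ splice site of U12-type (minor) introns, and Trp53 encodes the transcription factor p53.

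Rnu11 averaged 640 ± 86.4 TPM among controls, 144 ± 20.4 among cKO and 164 ± 26.3 among dKO libraries (SD, n = 4). Trp53 averaged 3.82 ± 1.73, 4.24 ± 0.404 and 1.22 ± 0.252 TPM, so each gene was lower where the labels give it as floxed on both alleles. All 8 radial glia markers, all 6 intermediate progenitor markers and 13 of 14 neuron markers passed the filter of 1 TPM, against 2 of 12 markers of the ventral telencephalon. As deposited, the median gene lay 0.25 higher on the log2 scale in cKO than in control and 0.26 lower in dKO than in cKO. Tests were therefore run on TPM divided by 1 median-ratio factor per library, called scaled TPM here, which brought the median differences to -0.0038 and 0.0087. The labels do not say whether libraries came from separate litters, so p-values measure the spread between these libraries. TPM keeps no depth, so the depth behind a value is unknown.

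Anoctamins share a core of membrane-spanning segments but differ in what they carry. Ano1 and Ano2 are calcium-activated chloride channels, Ano6 is a calcium-activated scramblase that moves phospholipids between the leaflets of the plasma membrane, and Ano8 and Ano10 form a separate branch associated with internal membranes. Variants of human ANO3 are linked to dystonia, a movement disorder, and Ano3 is known as a neuronal gene of the adult forebrain.

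Because relatives can share reads, the coding sequences were compared first. The gap-free stretch of 60 coding bases with most bases identical to Ano3, summed over the other anoctamins, is given here from GENCODE M21 transcripts (GRCm38). The stretch was chosen for all relatives together, so a single relative may be more like Ano3 elsewhere. It covers bases 1150 to 1209 of the Ano3 coding sequence. In the Ano3 line, capitals mark the 23 bases identical in all 10 anoctamins, and in the other lines capitals mark bases identical to Ano3.
Ano3: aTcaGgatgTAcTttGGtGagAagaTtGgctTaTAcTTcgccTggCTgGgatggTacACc
Ano4: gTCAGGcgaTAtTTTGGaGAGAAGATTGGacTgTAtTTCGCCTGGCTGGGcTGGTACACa
Ano1: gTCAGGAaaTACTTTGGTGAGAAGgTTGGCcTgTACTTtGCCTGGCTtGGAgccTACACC
Ano6: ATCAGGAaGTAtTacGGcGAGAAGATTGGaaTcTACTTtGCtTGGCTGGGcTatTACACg
Ano8: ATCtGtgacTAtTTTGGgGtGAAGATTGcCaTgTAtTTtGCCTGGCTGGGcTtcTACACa
Ano10: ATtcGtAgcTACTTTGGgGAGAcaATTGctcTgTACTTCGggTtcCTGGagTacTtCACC

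Of these 60 bases, Ano4 shared 48 with Ano3, Ano1 shared 49, Ano6 shared 46, Ano8 shared 43 and Ano10 shared 39, and in Ano5, the least alike, 37 were shared. Over the whole coding sequence Ano4 was the closest relative, with 64.5% of aligned bases identical to Ano3, and Ano8 was the most distant, with 40.3%. Ano5, Ano9, Ano6, Ano2, Ano1, Ano7 and Ano10 lay between, from 53.3% down to 42.3%. Of the 7187 different words of 31 bases in the Ano3 transcripts, 0 occurred in another anoctamin. All 34 words found in another gene were on the opposite strand of Muc15, a gene that lies inside Ano3 and is described with its neighbours.

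Ano3 was below 0.3 TPM in every control library and had the highest mean of the family in cKO. In the 4 control libraries it was at 0.180, 0.181, 0.145 and 0.272 TPM. In the 4 cKO libraries it was at 6.79, 6.66, 6.67 and 7.36 TPM, and in the 4 dKO libraries at 0.355, 0.205, 0.420 and 0.387 TPM. Every cKO library lay above every library of the other genotypes, and the control and dKO ranges overlapped. Mean levels were 0.195 ± 0.0541 TPM for control, 6.87 ± 0.332 for cKO and 0.342 ± 0.0948 for dKO (SD, n = 4). The cKO mean was 35.3 times the control mean as deposited and 28.5 times on scaled TPM. The spread within cKO was small, with an SD of 4.84% of the mean.

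On the log2(scaled TPM + 1) scale, which understates the change of low genes, Ano3 differed by 2.52 ± 0.0821 (SE) in cKO against control, by 0.18 in dKO against control and by -2.34 in dKO against cKO. The same differences were 2.72, 0.17 and -2.55 as deposited, and 2.57, 0.17 and -2.39 after rescaling to equal protein-coding sums. With a pseudocount of 0.1 in place of 1 they were 4.31, 0.60 and -3.70. The contrasts share libraries, so the first and the last of these differences rest on the same 4 cKO libraries. In bulk tissue, more cells of a type and more RNA per cell cannot be told apart.

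**Figure D1:**
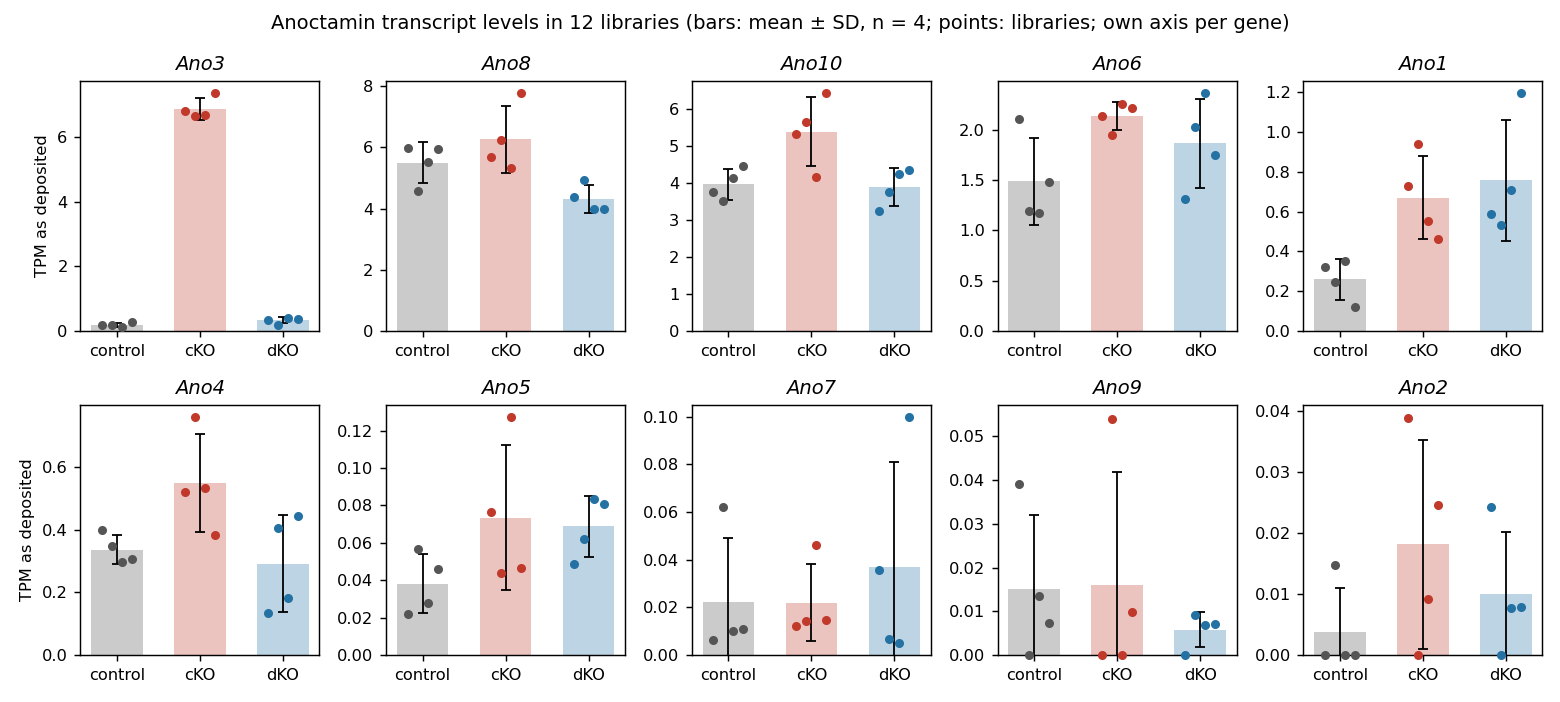
Deposited TPM of the 10 anoctamin genes in control, cKO and dKO (bars, mean; error bars, SD, n = 4, ended at 0; points, single libraries; each gene has its own vertical axis). The 4 cKO points of Ano3 lie between 6.66 and 7.36 TPM while its other 8 points lie at or below 0.420, a separation that no other panel shows.

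The place of Ano3 within the family moved accordingly. In control the order was Ano8, Ano10 and Ano6, whose ranges over the 4 libraries did not touch, then Ano4, Ano1 and Ano3, each overlapping its neighbour, and last Ano5, Ano7, Ano9 and Ano2, also overlapping. In cKO Ano3 came first, but its range overlapped that of Ano8, and Ano8 overlapped Ano10. In dKO the order was Ano8 and Ano10, overlapping, then Ano6, Ano1 and, with overlapping ranges, Ano3 and Ano4. Of the summed anoctamin TPM, Ano3 made up 1.64% ± 0.404 for control libraries, 31.3% ± 1.95 for cKO libraries and 2.97% ± 0.851 for dKO libraries (SD, n = 4). The summed scaled TPM of the 9 other anoctamins was 12.4 ± 0.715, 13.01 ± 0.631 and 12.2 ± 1.00 in the same order, so the means differed by no more than the largest SD between libraries.

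**Figure D2:**
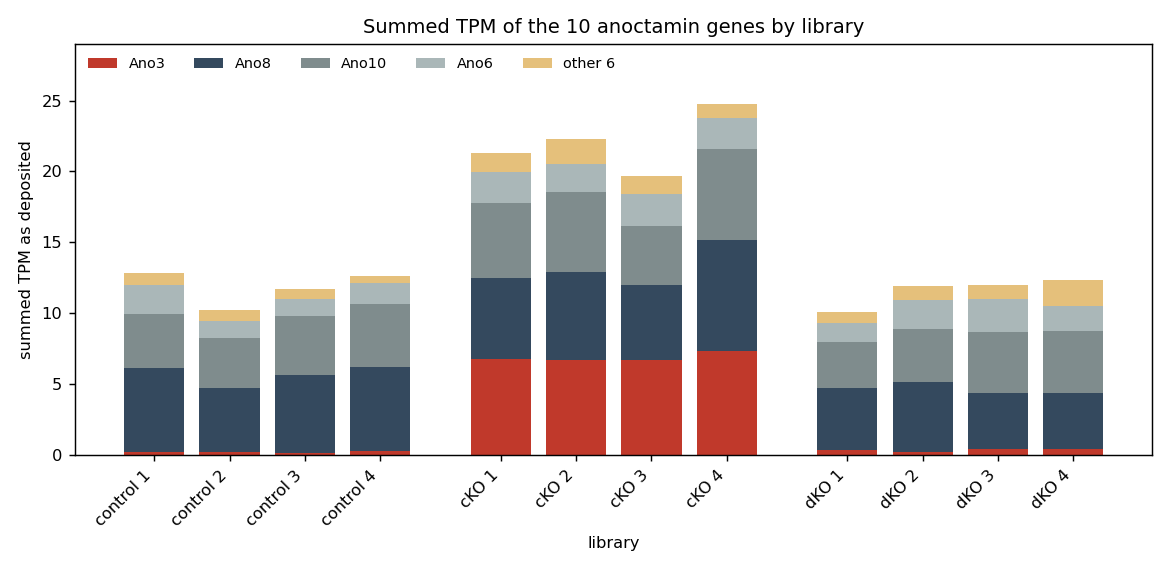
Stacked bars of deposited TPM for the anoctamin genes in each of the 12 libraries, with the 6 lowest genes combined as other. The Ano3 segment fills 29.8% to 33.9% of the bar in cKO libraries and 1.24% to 3.51% in the libraries of the other genotypes.

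No relative passed the test in cKO, a count that is near the background share for so few genes. Of the 9 other anoctamins, 0 were called in cKO against control by limma (Benjamini-Hochberg adjusted p under 0.05). Only 3 passed the filter, and over all genes tested the share called was 3.96% upward and 3.26% downward. In the fit without a filter, which holds all 9, 0 were called against 2.13% of its genes, and 1 had an unadjusted p under 0.05. Their differences ran from -0.11 to 0.30 on the log2 scale, 6 of 9 above 0. In dKO against cKO 0 of the 3 were called, where 2.72% of genes were higher and 4.22% lower, and without a filter 0 of 9 were called against 2.17%. In dKO against control 1 was called lower, Ano8, where 3.95% of genes were called higher and 5.05% lower, and without a filter 0 of 9 against 2.15%. The scaled ranges of the groups did not overlap for 0, 2 and 0 of the 9 in cKO against control, dKO against control and dKO against cKO. Among the genes that passed the filter this held for 17.5%, 14.1% and 15.5%.

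Ano8 and Ano10, the best expressed relatives, belong to the branch most distant from Ano3. Ano8, known as a tether between the endoplasmic reticulum and the plasma membrane, was at 5.98, 4.57, 5.52 and 5.95 TPM in control, at 5.68, 6.25, 5.33 and 7.78 in cKO and at 4.37, 4.92, 3.98 and 3.99 in dKO. On scaled TPM its dKO libraries (4.27 to 5.17) all lay below its control libraries (5.22 to 6.29). It fell in dKO against control by 0.27 on the log2 scale (SE 0.0751, limma adjusted p = 0.0429), and the call held in 8 of 20 settings, with an adjusted p between 0.0353 and 0.1715. Libraries whose removal ended the call were control 1, 3 and 4, dKO 3 and 4, and cKO 1 and 2, which enter through the shared estimate of the spread, with adjusted p from 0.0636 to 0.120. Its differences were -0.11 in cKO against control (adjusted p = 0.433; 0.15 as deposited, the opposite direction) and -0.16 in dKO against cKO (adjusted p = 0.213; -0.44 and 0.0104 as deposited).

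Ano10, variants of which in humans cause a recessive ataxia, was at 3.76, 3.53, 4.14 and 4.45 TPM in control, at 5.33, 5.65, 4.17 and 6.44 in cKO and at 3.24, 3.77, 4.24 and 4.35 in dKO. The cKO libraries spread widely, and the lowest of them lay within the control range. Its differences were 0.10 ± 0.0944 (SE) in cKO against control, -0.0031 in dKO against control and -0.10 in dKO against cKO (limma adjusted p = 0.587, 0.990 and 0.538). As deposited, with the shift common to most genes left in, it was called in cKO against control (0.36, adjusted p = 0.0332) and in dKO against cKO (-0.38, adjusted p = 0.0234).

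Ano6, the scramblase that exposes phosphatidylserine on activated platelets, was at 2.10, 1.19, 1.18 and 1.48 TPM in control, at 2.14, 1.94, 2.26 and 2.21 in cKO and at 1.31, 2.03, 2.36 and 1.75 in dKO. Control 1 was as high as the cKO libraries, and on scaled TPM all 3 genotypes overlapped. Its differences were 0.15 ± 0.126 (SE) in cKO against control, 0.23 in dKO against control and 0.07 in dKO against cKO, with limma adjusted p of 0.527, 0.298 and 0.762.

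Ano1 and Ano2, the chloride channels, were low. Ano1 was at 0.324, 0.244, 0.353 and 0.120 TPM in control, at 0.726, 0.938, 0.551 and 0.464 in cKO and at 0.589, 0.532, 0.709 and 1.20 in dKO. On scaled TPM the dKO libraries (0.558 to 1.33) all lay above the control libraries (0.127 to 0.376), while the lowest cKO library, at 0.354, lay within the control range. Its mean scaled TPM was 2.10 times the control mean in cKO and 2.97 times in dKO, and 2.57 times in cKO as deposited. The differences were 0.30 in cKO against control, 0.50 in dKO against control and 0.20 in dKO against cKO, each ± 0.132 (SE), and 0.86, 1.28 and 0.42 with a pseudocount of 0.1. None passed the test in the limma fit without a filter (adjusted p = 0.325, 0.0833 and 0.539), and the unadjusted p was 0.0414 in cKO against control and 0.00289 in dKO against control.

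Ano1 is also known from smooth muscle and pericytes, so marker levels of vessels and meninges are given beside it. The summed scaled level of 12 vessel and pericyte markers was 14.2 to 16.2 TPM in control, 22.4 to 25.03 in cKO and 19.1 to 27.3 in dKO, with 0 of 12 at 0 throughout a genotype. Of 8 that passed the filter, 3 rose in cKO against control: Cldn5, a tight-junction gene of endothelium, Kdr, a receptor for vascular growth factor, and Rgs5, a pericyte gene (log2 differences 0.45, 0.55 and 0.54, adjusted p = 0.0117, 0.0232 and 0.00175), beside 3.96% of all tested genes. As deposited 8 of 8 were called, beside 34.3% of all genes called higher and 1.09% lower. In dKO against control Kdr rose (0.46, adjusted p = 0.0434; 0.102 as deposited), where 3.95% of all tested genes were called higher. The summed scaled level of 8 meningeal markers was 24.99 to 41.1 TPM in control, 38.5 to 43.1 in cKO and 38.8 to 58.4 in dKO, so the ranges overlapped. Their mean sums as deposited were lowest in control, at 28.8, 46.4 and 45.7 TPM in the same order. Median differences of the tested meningeal markers were 0.37 in cKO and 0.59 in dKO, both against control. Of the 4 that passed the filter, Col3a1 and Lum rose in dKO against control (0.83 and 0.54, adjusted p = 0.0257 and 0.0275; 0.0409 and 0.0591 as deposited, where 1.79% of all genes were called higher and 3.4% lower). The part of these cells in the Ano1 values was not tested.

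Ano4, the closest relative of Ano3 in sequence, was at 0.397, 0.346, 0.296 and 0.305 TPM in control, at 0.521, 0.760, 0.532 and 0.382 in cKO and at 0.135, 0.405, 0.182 and 0.442 in dKO. The groups overlapped on scaled TPM, and its differences were 0.12 ± 0.0995 (SE), -0.06 and -0.17 in the order of the contrasts above (limma without a filter, adjusted p = 0.632, 0.840 and 0.446). In control Ano4 and Ano3 had overlapping ranges, whereas in cKO the mean of Ano4 was 0.549 TPM beside 6.87 for Ano3.

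Ano5, whose loss in humans causes a muscular dystrophy, ranged from 0.0221 to 0.0565 TPM in control, from 0.0436 to 0.127 in cKO and from 0.0485 to 0.0834 in dKO. Ano2, the channel of olfactory sensory neurons, was listed at 0 in 3 control libraries, 1 cKO library and 1 dKO library, and its highest value was 0.0389 TPM. Ano7, a gene known from prostate, reached 0.0997 TPM at most, and Ano9 reached 0.0541 and was listed at 0 in 1 control, 2 cKO and 1 dKO library. None of these 4 was called in the limma fit without a filter.

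**Figure D3:**
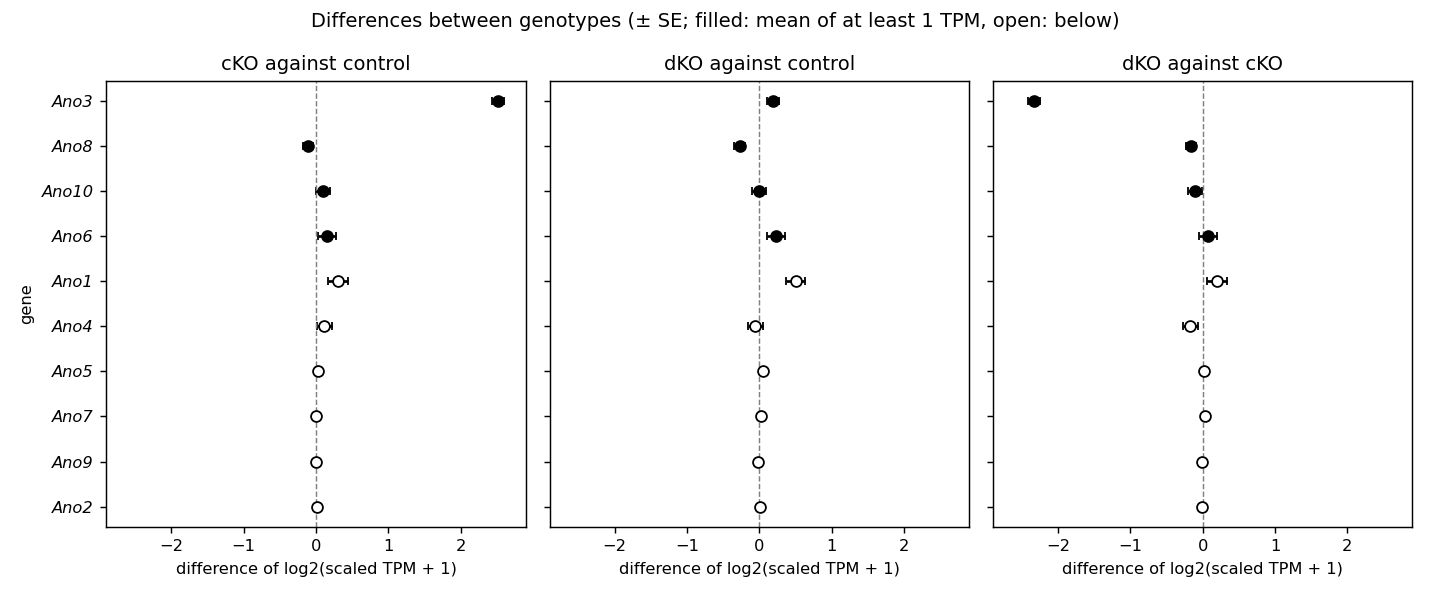
Differences of log2(scaled TPM + 1) between genotypes for the 10 anoctamins in 3 panels, 1 per contrast, with error bars of 1 SE (filled points, mean of at least 1 TPM; open points, below). Ano3 stands at 2.52 in cKO against control and at -2.34 in dKO against cKO, while the other genes lie between -0.27 and 0.50 in every panel on this scale, which compresses differences of low genes such as Ano1.

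Genes of related function were counted next. The Tmc and Tmem63 genes are the nearest relatives of anoctamins by protein fold, and 2 of 11 passed the filter. Of these, 0 were called in cKO against control (median 0.14 on the log2 scale, beside -0.0038 over all tested genes) and 0 in dKO against control, and Tmem63b, a stretch-activated channel, fell by 0.50 in dKO against cKO (adjusted p = 0.0473). Of 14 other scramblase genes (the Xk and Plscr families, Tmem41b and Vmp1) 4 passed the filter and 0 were called in any contrast, with medians of 0.11, 0.02 and -0.10. As deposited, 3 of these 4 were called higher in cKO against control, beside 34.3% of all tested genes, and 2 lower in dKO against cKO, beside 38.8% (0.612% were called higher). Of 17 flippase genes, which move phospholipids inward, 8 passed the filter. Atp9a rose in cKO against control from 10.4 to 14.6 scaled TPM (0.45 ± 0.104 SE, adjusted p = 0.0238). As deposited, 3 of the 8 flippase genes were called higher in cKO against control and 7 lower in dKO against cKO, beside the same shares of 34.3% and 38.8%.

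Of 25 other chloride channel genes 15 passed the filter, with medians of 0.0054, -0.10 and -0.04 in the 3 contrasts. The main-test calls among them stand beside 3.26%, 5.05% and 4.22% of all tested genes called lower in these contrasts. Ttyh1, a channel-related gene of neural progenitors, fell in cKO against control from 18.1 to 12.5 scaled TPM (-0.49 ± 0.122 SE, adjusted p = 0.0333), a call not made as deposited (-0.20, adjusted p = 0.336). Clcn6, a transporter of late endosomes, fell by 0.34 in dKO against control (adjusted p = 0.0324; 0.0503 as deposited). Clcn2, a plasma membrane channel, and Clcn4, an endosomal exchanger, fell by 0.43 and 0.31 in dKO against cKO (adjusted p = 0.0258 and 0.0361). As deposited, 4 of these 15 passed the test upward in cKO against control, 0 downward, and 8 downward in dKO against cKO, again beside 34.3% and 38.8% of all genes. Tmem63b, Clcn6, Clcn2, Clcn4, Cldn5, Col3a1, Lum, Eomes, Neurod6, Neurod2, Tubb3 and Snap25 were named after their values were seen.

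Ano3 lies on the minus strand of chromosome 2 (GRCm38, chr2:110655201-110950923), spans 295.7 kb and has 27 exons in its longest transcript, and exons make up 2.44% of the gene. Muc15, a membrane mucin gene, lies on the opposite strand inside Ano3 (chr2:110721340-110739527), across introns 13 and 14, and 61 of its 3569 exon bases overlap Ano3 exons. It was at 0.0164, 0.0631, 0.0297 and 0.0140 TPM in control, at 0.324, 0.449, 0.549 and 0.589 in cKO and at 0.0186, 0.0227, 0 and 0.0172 in dKO. Its cKO libraries lay above all others, as those of Ano3 did. In the limma fit without a filter it rose by 0.45 ± 0.0427 (SE) in cKO against control (adjusted p = 0.000271) and fell by 0.47 in dKO against cKO (adjusted p = 0.000293). In cKO libraries Muc15 had 4.77% to 8.24% of the TPM of Ano3. This share was 5.17% to 34.9% in control and 0% to 11.1% in dKO libraries, where both genes were low. The library kit was stranded, but the use of strand in counting is not given in the sources used here, so reads of Muc15 and of Ano3 pre-mRNA cannot be told apart and the Muc15 test is not independent of Ano3.

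Slc5a12, a lactate transporter gene, lies on the opposite strand 7422 bases beyond the 3′ end of Ano3, the ends of both genes facing each other. It was listed at 0 in all 4 control libraries, at 0.0418, 0.135, 0.107 and 0.0336 TPM in cKO and at 0, 0, 0.0102 and 0.0119 in dKO. The cKO libraries again lay above the others, at levels near 0, and neither difference passed the test (limma without a filter, adjusted p = 0.0565 in cKO against control and 0.0745 in dKO against cKO). Fibin and Bbox1, 292018 and 340641 bases beyond the 3′ end of Ano3, were not called, with cKO means of 0.425 and 0.0604 TPM beside 0.248 and 0.0212 in control. On the 5′ side, 4930430A15Rik and Olfr1275, an olfactory receptor gene, were listed at 0 in every control and dKO library and did not exceed 0.0324 TPM in cKO.

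**Figure D4:**
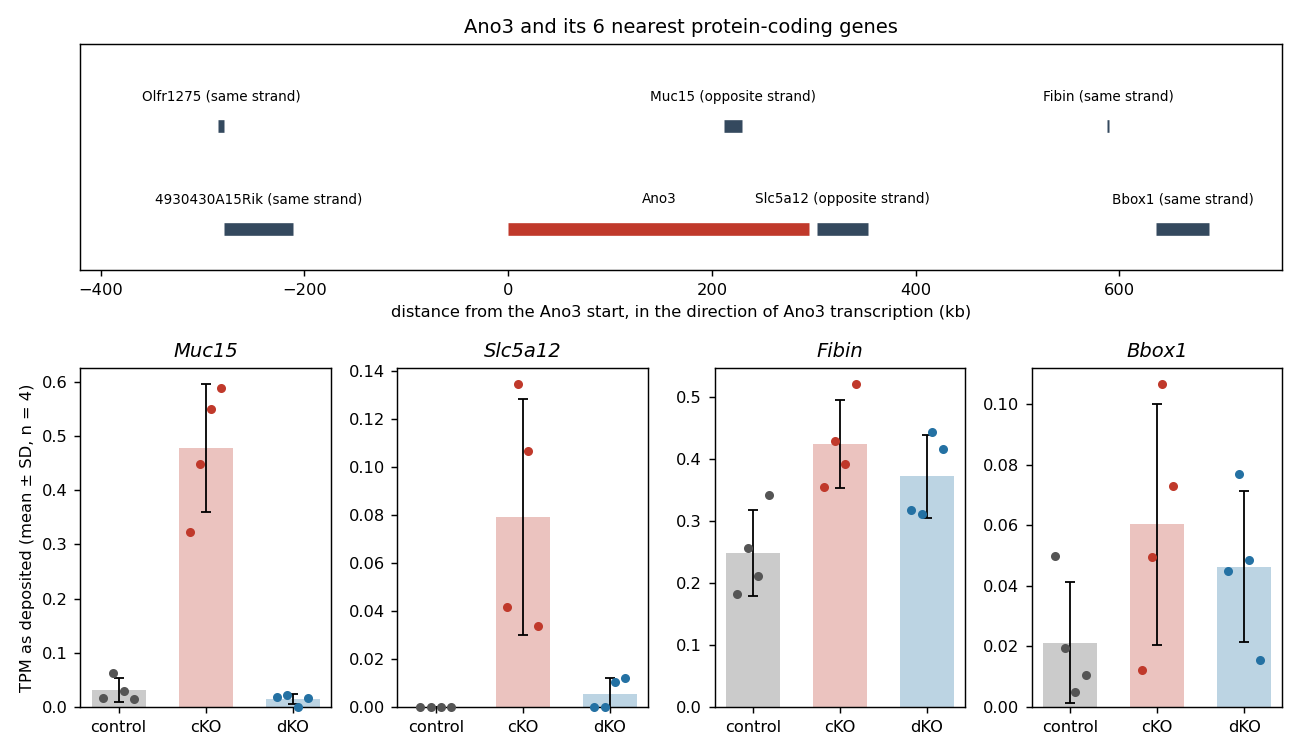
Above, Ano3 and its 6 nearest protein-coding genes, drawn by distance from the Ano3 start along its direction of transcription (kb). Below, deposited TPM of Muc15, Slc5a12, Fibin and Bbox1 by genotype (bars, mean; error bars, SD, n = 4; points, libraries; own axis per gene), where the cKO points of Muc15 (0.324 to 0.589) and Slc5a12 (0.0336 to 0.135) lie above all points of the other genotypes.

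The genes most like Ano3 were ranked by the mean over 12 libraries of the absolute difference between each gene and Ano3 in log2(scaled TPM + 1), after subtracting each gene's own control mean, among 9809 protein-coding genes. The measure selects genes with a change of similar size, so the values of those found are a description. The first was Eda2r, a receptor of the tumour necrosis factor receptor family (0.188), followed by Ccng1, a cyclin gene activated by p53 (0.318), and C1qa, a complement gene of microglia (0.353). The next were Fcrls (0.383), Serpine2 (0.418), Spp1 (0.421), C1qb (0.429), Zfp365 (0.457), Sesn2 (0.457) and C1qc (0.462). Of these 10, Eda2r, Ccng1 and Sesn2 are in a list of p53 targets and C1qa, Fcrls, C1qb and C1qc in a list of microglia markers. As deposited and with a pseudocount of 0.1, settings chosen after the data were seen, 8 of the 10 were found again each time.

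Eda2r was at 0.714, 0.953, 0.770 and 0.902 TPM in control, at 10.9, 11.2, 11.4 and 12.8 in cKO and at 0.420, 0.327, 0.739 and 0.646 in dKO. Its level in cKO was nearly even across libraries, like that of Ano3. C1qa, by contrast, was at 15.8 and 17.2 TPM in cKO 1 and 2 and at 11.7 and 13.2 in cKO 3 and 4. Spp1, a secreted phosphoprotein gene, was at 5.27 and 5.60 TPM in cKO 1 and 2 and at 2.15 and 2.28 in cKO 3 and 4. Sesn2, in the p53 target list as Eda2r is, was also uneven, at 4.24, 3.51, 3.06 and 5.21 TPM in cKO. Its SD was 23.4% of the cKO mean, beside 17.2% for C1qa, 10.1% for Ccng1 and 7.36% for Eda2r, so evenness did not separate the lists. Of the other anoctamins, only the 3 that passed the filter were ranked, with Ano10 at place 2101, Ano6 at 2676 and Ano8 at 8197 of 9809.

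**Figure D5:**
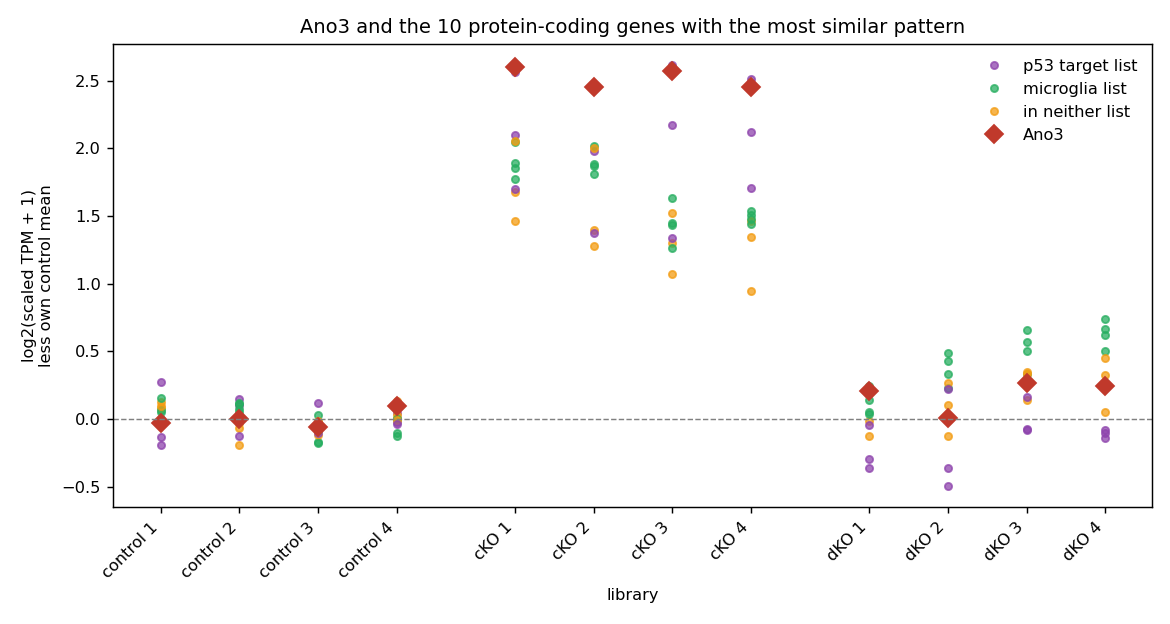
Level of Ano3 (diamonds) and of the 10 protein-coding genes with the most similar pattern (dots, coloured by list) in each of 12 libraries, as log2(scaled TPM + 1) less the gene's own control mean. Every gene plotted is higher in each cKO library than in any control or dKO library, and the genes were chosen for this pattern.

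Most tested genes of these lists were called in the contrasts that involve cKO. The counts include Eda2r, Ccng1, Sesn2, C1qa, Fcrls, C1qb and C1qc, which were found by their likeness to Ano3. The lists were also chosen with earlier results of these data known. In addition, the filter took the mean over all libraries, so a gene could pass it through its cKO level alone. Eda2r and Sesn2, for example, averaged 9.99 and 3.43 scaled TPM in cKO and less than 1 in control and in dKO. For these reasons the counts are a description, also where the share of all tested genes is given beside them. Of 20 p53 targets 14 passed the filter, and 12 rose in cKO against control, 12 fell in dKO against cKO and 1 fell in dKO against control, with medians of 1.02, -1.18 and -0.17. Over all tested genes 3.96% were higher in the first of these contrasts, 4.22% lower in the second and 5.05% lower in the third. Of 10 microglia markers 9 passed the filter, and 8 rose in cKO against control, 7 fell in dKO against cKO and 0 were called in dKO against control, with medians of 1.59, -1.20 and 0.33. The summed scaled level of the microglia markers was 15.2 to 18.1 TPM in control, 51.5 to 70.04 in cKO and 18.6 to 26.1 in dKO, with 0 of 10 at 0 throughout a genotype.

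Markers of the pallial cells themselves were counted in the same way. The summed scaled level of the neuron markers was 262 to 325 TPM in control, 285 to 366 in cKO and 205 to 294 in dKO, so each genotype overlapped the control. Of 13 that passed the filter, Gap43, a growth cone gene, rose in cKO against control (0.71, adjusted p = 0.00702), beside 3.96% of all tested genes. Neurod6 and Neurod2, transcription factors of excitatory neurons, fell by 0.60 and 0.59 in dKO against control (adjusted p = 0.0395 and 0.03), the Neurod2 call being lost as deposited (0.051). Over all tested genes 5.05% were called lower in that contrast. In dKO against cKO 4 fell, beside 4.22% of all tested genes: Neurod2, Gap43, Tubb3 and Snap25. As deposited, 8 of the 13 were called higher in cKO against control and 11 lower in dKO against cKO, beside 34.3% and 38.8% of all tested genes.

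Radial glia markers summed to 270 to 290 scaled TPM in control, 268 to 292 in cKO and 288 to 312 in dKO. These ranges overlapped. Of the 8 markers, Hes5, a Notch target, and Sox2, a progenitor transcription factor, fell in cKO against control by 0.73 and 0.47 (adjusted p = 0.0093 and 0.0108). Of 6 intermediate progenitor markers, Neurog2, Neurog1 and Eomes, transcription factors of neurogenesis, fell in cKO against control by 0.78, 0.62 and 0.43 (adjusted p = 0.00151, 0.0411 and 0.00927). Over all tested genes 3.26% were called lower in this contrast. As deposited the calls of Sox2, Neurog1 and Eomes were lost (adjusted p = 0.236, 0.0745 and 0.295), where 1.09% of all tested genes were called lower. Eomes also fell in dKO against control, by 0.55 (adjusted p = 0.00239), beside 5.05% of all tested genes. The part of microglia, neurons or progenitors in the Ano3 values was not tested.

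Promoter windows of RefSeq (GRCm38.p6, reaching from upstream of a start to just after it) were searched on both strands for the half-site of p53 by its standard consensus, since p53 targets moved with Ano3. Of 32851 windows of 300 bases each, 2745 (8.36%) held a match. Windows were found for 8 of 10 anoctamins, and 2 of their 11 windows held a match, in Ano2 and Ano6. Of 10 windows of 9 genes most like Ano3, 2 held one, in Ccng1 and Fcrls. Neither of the 2 windows of Ano3 held a match, which says only that these letters are not in those windows. The matches are shown because they lie beside genes that differ in whether they changed with Ano3, each in 30 bases of the gene's strand with the half-site in capitals.
Ccng1: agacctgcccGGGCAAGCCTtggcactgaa
Fcrls: gcaaatatctAAGCAAGTCTgtaaagagga
Ano6: gcgtccctctGGGCATGCTCagtcgcaggc
Ano2: tctggaagttGGGCTAGTCTctgcgaagga

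The first base of the match lay at -185 from the start in Ccng1, -159 in Fcrls, -14 in Ano6 and -95 in Ano2. Ccng1 and Fcrls were among the genes chosen for likeness to Ano3, whereas Ano6 was not called in any contrast and Ano2 was near 0 in every library.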

How the data were processed

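Total RNA of 12 pallium libraries (control, cKO and dKO, 4 each) was compared. The authors deposited TPM per gene symbol, a length-corrected value with the same total in every library. Reads were aligned with HISAT2 to mm10, per the submitters' processing notes, and the quantifier and its annotation are not given in the sources used here. TPM were divided by a median-ratio factor per library, and log2(scaled TPM + 1) was fitted over all 3 genotypes with limma 3.58.1 (R 4.3.3, eBayes with trend), for genes averaging 1 TPM or more, with Benjamini-Hochberg adjustment over all of them and calls at 0.05. Genes under the filter take their p from the same fit without it (39624 genes). Data were simulated from control means and the spread within genotypes, averaged over the 3 genotypes. Of 11764 genes, 200 were changed by 1 on the log2 scale in the simulated cKO libraries, and 184 (92%) were recovered in cKO against control. Another 14 were called. The changed genes were drawn from those with a control mean of log2(scaled TPM + 1) over 1, so this share does not cover lower genes.

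Named genes were the 10 anoctamins, Rnu11 and Trp53, the 10 genes most like Ano3 and the neighbours of Ano3. These neighbours were the 3 protein-coding genes on each side by start position, with Muc15, inside Ano3, counted on the 5′ side. Also named were the 2 called genes with the largest difference in cKO against control in each list, apart from exceptions named as such. The members and lists were chosen with earlier results of these data known. Coding sequences were aligned with MAFFT 7.526. Alternatives were other scaling, pseudocount, filter, groups in the fit, a replicate block and leaving out each library. One result on a gene of the lists is not reported here.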

Additional observations from a re-analysis of the deposited data

Results flagged for a closer look

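Of 30 groups of 4 libraries (10 anoctamins in 3 genotypes), 3 held 1 library far above the rest. About 1.5 groups would be flagged, at either end, if values were normally distributed, which levels near 0 need not be. Ano2 in control 2 was at 0.0147 TPM and at 0 in the other control libraries, so the gap filled the whole range (ratio 1). Ano7 in control 2 was at 0.0623 TPM beside 0.0063 to 0.0108 in the others (ratio of gap to range 0.92). Ano7 in cKO 3 was at 0.0462 TPM beside 0.0123 to 0.0148 (ratio 0.926). All 3 are at levels too low for a call, and no result of the report rests on them.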

How the results depend on the processing

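As deposited, 1 of the 9 other anoctamins was called in cKO against control, 0 in dKO against control and 2 in dKO against cKO, beside 0, 1 and 0. The 1 call in dKO against control, Ano8, became 0 also with no filter, with a mean of at least 5 TPM, with only the 2 groups compared in the fit and with the replicate block, and was 0 to 1 when single libraries were left out. Of all tested genes 849, 1059 and 816 were called in cKO against control, dKO against control and dKO against cKO. These counts became 4163, 610 and 4636 as deposited, 398, 543 and 346 with a mean of at least 5 TPM, and 550, 646 and 458 with the replicate block. With 2 groups in the fit they were 474 in dKO against control and 442 in dKO against cKO. Leaving out single libraries gave 496 to 1137, 604 to 1190 and 238 to 873.

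Of 30 differences of the 10 anoctamins, 11 turned direction in at least 1 setting. Among genes that passed the filter these were Ano8 in cKO against control (0.15 as deposited), Ano6 in dKO against cKO (-0.14 as deposited, -0.0057 without dKO 3, in a range up to 0.17 without single libraries) and Ano10 in dKO against control (0.00099 with 2 groups, positive without control 3, control 4, dKO 1 or dKO 2, and -0.058 to 0.0553 over all single libraries left out). The other 8 belong to Ano2, Ano4, Ano5, Ano7 and Ano9 and were at most 0.0551 in size. The cause was not tested. Same-numbered libraries did not deviate together (0 of 12 pairs over a correlation of 0.1, from -0.097 to 0.0793, and 1 of 12 libraries correlated best with its own number). With 4 libraries per genotype, this check cannot tell whether same-numbered libraries share a litter or a batch. Ano3 kept its direction in every setting run, and without single libraries its difference in cKO against control ranged from 2.49 to 2.56. Deposited TPM carry no depth, so the precision of levels under 1 TPM is unknown.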
